A study of Mus musculus with 34 samples.

Results

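Genes of the response to tumour necrosis factor (TNF) and of the NF-kappaB pathway, 10 in all, were followed in the kidneys of 34 C57BL6 mice. They were chosen by name, with earlier results of these data known, so their counts beside shares of all genes are a description and not a test. They were the ligand Tnf, the receptors Tnfrsf1b and Tnfrsf12a, the subunits Nfkb2 and Relb, the inhibitors Nfkbia and Tnfaip3, the survival factor Birc3, and the target genes Icam1 and Tnfaip2. All 10 had a row among the 23509 genes of the count tables, and all 10 were among the 15644 genes that passed the filter on low counts. PolyA RNA of whole kidney was sequenced in 3 groups, each harvested at postnatal day (P) 28. The UNT group held 12 untreated non-transgenic mice. The PBS group held 11 Pkd2-KO mice (spelled Pdk2KO in the labels) dosed subcutaneously with saline vehicle, and the RGLS4326 group held 11 Pkd2-KO mice dosed with 20 mg/kg of RGLS4326, a short oligonucleotide that blocks the microRNA miR-17, both on P10, P11, P12 and P19. The paper that reported the study counts fewer PBS mice in this experiment than the labels do, and a control oligonucleotide group that is not analysed here. Groups follow the labels. In Pkd2-KO mice a Cre recombinase under the Pkhd1 promoter, which is active in kidney tubules, removes floxed Pkd2, so the other cells of the kidney keep the gene.

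TNF is a secreted cytokine made mainly by macrophages and other immune cells, and by injured epithelium. Its receptors recruit adaptor and ubiquitin ligase proteins that switch on IkappaB kinases, which free NF-kappaB dimers to enter the nucleus. The canonical arm runs through RELA and p50 and is held in check by IkappaB-alpha, the product of Nfkbia, and by A20, the product of Tnfaip3, both of which are themselves NF-kappaB targets. The non-canonical arm runs through RELB and p52, the processed product of Nfkb2. In the kidney the pathway is known for its part in inflammation after tubular injury and around cysts.

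The kappaB consensus, a motif of 10 bases bound by NF-kappaB dimers, was searched by its usual form on both strands of the RefSeq promoter windows (GRCm38.p6, 250 bases before to 50 bases after each start). Of the 9 members with a promoter entry, 3 held a match (Nfkb2, Nfkbia and Tnfaip3), against 6.43% of the 11545 tested genes with an entry. Relb had no entry. The windows around these matches are printed on the strand of the gene, with the matched letters in capitals, because they carry the motif that these dimers bind. Positions count the start as 0, and the pair of Nfkb2 matches at -39 and -38 overlap, so only the one at -39 is shown.
Nfkbia, chr12:55492667-55492676, first base at -29: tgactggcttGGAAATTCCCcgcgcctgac
Tnfaip3, chr10:19015413-19015422, first base at -12: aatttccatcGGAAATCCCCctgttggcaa
Tnfaip3, chr10:19015526-19015535, first base at -125: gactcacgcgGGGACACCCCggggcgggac
Nfkb2, chr19:46304698-46304707, first base at -39: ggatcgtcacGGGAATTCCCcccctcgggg
Nfkb2, chr19:46304726-46304735, first base at -11: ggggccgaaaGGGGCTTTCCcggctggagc
Nfkb2, chr19:46305459-46305468, first base at -236 of another start: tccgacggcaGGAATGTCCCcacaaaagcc
Nfkb2, chr19:46305705-46305714, first base at 10 of that start: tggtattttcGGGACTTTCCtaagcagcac
A match describes letters in a short window and is not a measured binding site. The windows of Tnf, Tnfrsf1b, Tnfrsf12a, Birc3, Icam1 and Tnfaip2 held no match, which says nothing of sites outside these windows.

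Because the treatment blocks miR-17, the longest annotated 3′UTR of each member was searched for sites that pair with the miR-17 seed (bases 2 to 8, in capitals in the mature sequence from RefSeq). A site was GCACTTT, which pairs with bases 2 to 8, or CACTTTA, which pairs with bases 2 to 7 and ends in A (the 7mer-A1 kind). No member held GCACTTT. Birc3 was the only member with a site, of the 7mer-A1 kind, at bases 581 to 587 of 1525, on the minus strand at chr9:7856753-7856759 of GRCm38. Among 14193 tested genes with a 3′UTR, 21.2% held at least 1 site of either kind.
mmu-miR-17-5p, chr14:115043684-115043706, plus strand: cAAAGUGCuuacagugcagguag
Birc3 site: tgggcatctaCACTTTAagcaaactac

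The libraries held between 17603122 and 54981992 reads in genes. No pair of libraries was identical. Pkd2, the targeted gene, lay between 220 and 338 CPM (reads of a gene scaled to a common library size) in UNT, between 98.0 and 215 CPM in PBS and between 170 and 237 CPM in RGLS4326 kidneys. The no-gene share, the part of uniquely mapped reads that fell outside every annotated gene, was 12.9 to 14.9% in UNT, 6.08 to 11.0% in PBS and 5.82 to 14.6% in RGLS4326 libraries. Library numbering restarted 3 times in the deposited tables, giving 3 numbering sets, each with mice of every group. The adrenal cortex genes Cyp11b1, Cyp11b2 and Star summed to 692 CPM in PBS replicate 11 and to 454 CPM in PBS replicate 2, against at most 21.5 CPM in any other library. Values without these 2 libraries, left out after the data were seen, are given where they change a call.

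The first comparison asked how the members differed between cystic and normal kidney. All 10 members were called higher in PBS-treated Pkd2-KO than in UNT kidneys, by edgeR's quasi-likelihood test at an adjusted p under 0.05, where 43.1% of all genes tested were called higher and 39.0% lower. The rise was more than 1 on the log2 scale for 8 of 10 members, against 18.2% of all genes. For 9 of 10 members, Nfkbia being the exception, every PBS kidney lay above every UNT kidney, against 22.7% of all genes. The median log2 fold change was 2.40 over the members and 0.04 over all genes. In whole kidney, a change in the number of cells of a type and a change in RNA per cell, up or down, cannot be told apart.

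**Figure D1:**
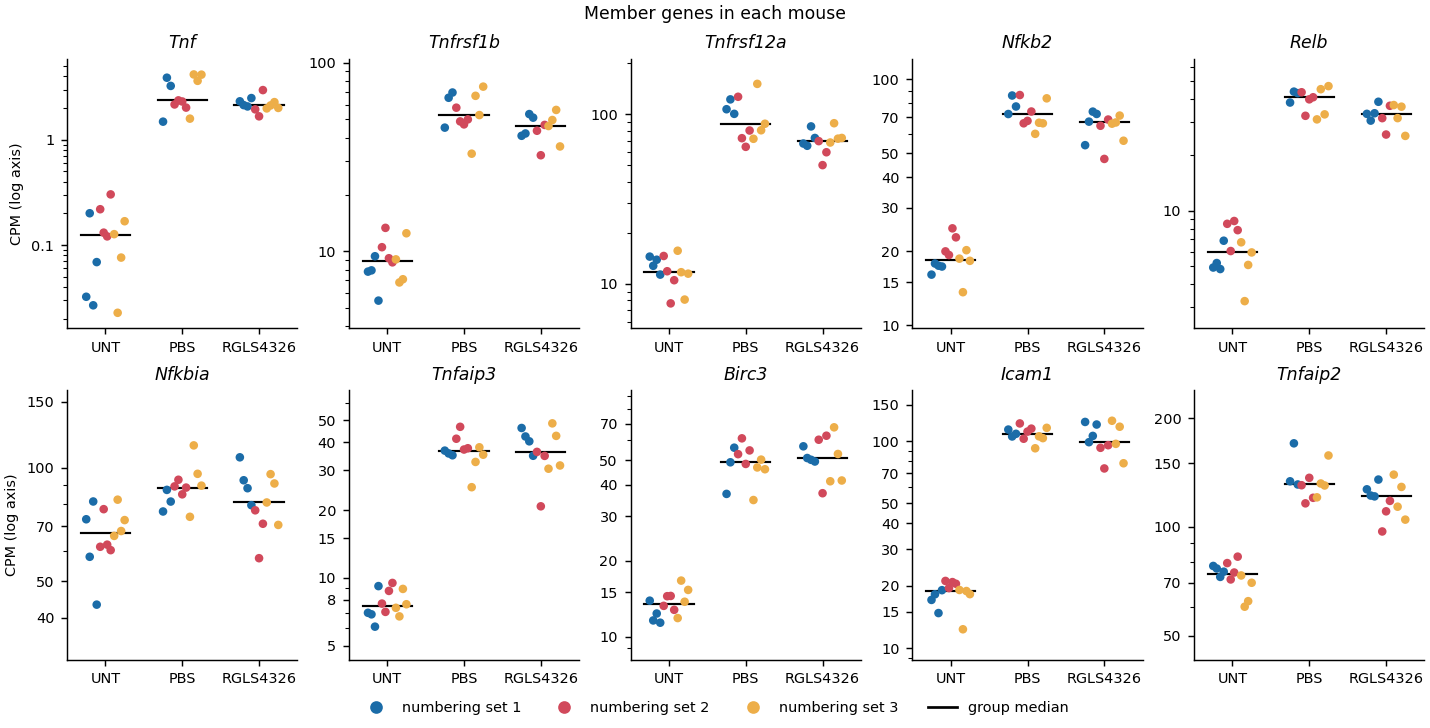
CPM of each member (vertical, log axis) in each mouse of the UNT, PBS and RGLS4326 groups, with points coloured by numbering set and a bar at the group median. The UNT kidneys sit below every Pkd2-KO kidney in all panels but that of Nfkbia, and the PBS and RGLS4326 points overlap in every panel.

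The ligand Tnf was close to absent from UNT kidneys. It lay between 0.0227 and 0.303 CPM there (median 0.124), a total of 54 reads over 12 libraries, and between 1.49 and 4.18 CPM in PBS kidneys (median 2.37), a total of 1159 reads. RGLS4326 kidneys held 1.67 to 2.97 CPM (median 2.12). The Pkd2-KO kidneys of both treatments lay wholly above the UNT kidneys. The mean rose from 0.125 ± 0.0865 (SD, n = 12) to 2.83 ± 1.02 CPM (SD, n = 11), or 4.45 ± 0.25 on the log2 scale (SE, adjusted p = 7.14e-18), the steepest rise of the 10 members. Even so, Tnf stayed the least abundant member per length in every group.

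Tnfrsf1b encodes TNF receptor 2, found mostly on immune cells and endothelium. It lay between 5.47 and 13.3 CPM in UNT (median 8.89), 32.9 and 74.7 CPM in PBS (median 52.8) and 32.3 and 56.2 CPM in RGLS4326 kidneys (median 46.2). The lowest PBS kidney was above the highest UNT kidney, and the gene rose on the log2 scale by 2.63 ± 0.13 (SE, adjusted p = 1.60e-19). Tnfrsf12a encodes Fn14, a receptor on injured epithelium that binds the ligand TWEAK. It lay between 7.68 and 15.7 CPM in UNT (median 11.8), 64.4 and 151 CPM in PBS (median 88.1) and 50.2 and 88.7 CPM in RGLS4326 kidneys (median 69.5). Again the groups did not overlap, and the log2 fold change of PBS against UNT was 3.01 ± 0.13 (SE, adjusted p = 7.11e-21), an 8.05-fold rise.

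The subunits of the non-canonical dimer rose as well. Nfkb2 lay between 13.6 and 24.8 CPM in UNT (median 18.5), 60.03 and 86.3 CPM in PBS (median 72.3) and 47.5 and 73.9 CPM in RGLS4326 kidneys (median 66.8). Its log2 fold change was 1.96 ± 0.08 (SE, adjusted p = 2.25e-21). Relb lay between 3.24 and 8.79 CPM in UNT (median 6.0), 31.2 and 47.1 CPM in PBS (median 41.0) and 25.4 and 38.8 CPM in RGLS4326 kidneys (median 33.4). Its log2 fold change was 2.69 ± 0.12 (SE, adjusted p = 6.28e-21), so that Relb, the scarcer of the pair in UNT kidneys, rose by the larger factor. Nfkb2 shares 299 exonic bases, 6.52% of its exonic length, with Psd on the opposite strand, which also has a row in the tables. Nfkb2, Icam1 and Tnfaip2 each also overlap, over 6.3 to 11.7% of their exonic length, an opposite-strand gene that has no row in the tables. The strand setting of the counting is not given in the sources used here, and where strand was ignored the reads of the partners without a row cannot be told apart from the members' own. How reads shared by Nfkb2 and Psd were then assigned is not given either.

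The inhibitors behaved unlike each other. Nfkbia lay between 43.3 and 82.3 CPM in UNT (median 67.0), 74.1 and 115 CPM in PBS (median 88.7) and 57.5 and 107 CPM in RGLS4326 kidneys (median 80.9). It was the member whose groups overlapped, with 8 of 11 PBS kidneys above the highest UNT kidney, and its rise on the log2 scale was 0.40 ± 0.09 (SE, adjusted p = 1.55e-04), the least of the 10. Its call was lost in numbering set 1 alone (log2 fold change 0.32, adjusted p = 0.118) and with the no-gene share as a covariate (0.21, adjusted p = 0.209). Tnfaip3 lay between 6.07 and 9.49 CPM in UNT (median 7.49), 25.3 and 46.9 CPM in PBS (median 36.7) and 20.8 and 48.5 CPM in RGLS4326 kidneys (median 36.3). No Pkd2-KO kidney of either treatment fell within the UNT range of Tnfaip3, and the log2 fold change of PBS against UNT was 2.24 ± 0.11 (SE, adjusted p = 5.04e-20).

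Birc3 encodes cIAP2, a ubiquitin ligase of the TNF receptor complex that guards cells against death signals. It lay between 11.4 and 16.7 CPM in UNT (median 13.5), 34.8 and 61.1 CPM in PBS (median 49.1) and 37.0 and 67.6 CPM in RGLS4326 kidneys (median 51.1). The groups of Pkd2-KO mice lay wholly above UNT, and in PBS kidneys Birc3 was higher by 1.86 ± 0.09 on the log2 scale (SE, adjusted p = 3.09e-19). Icam1, the adhesion molecule that leukocytes bind on endothelium and on inflamed tubules, lay between 12.3 and 21.1 CPM in UNT (median 19.0), 92.2 and 122 CPM in PBS (median 108) and 73.7 and 125 CPM in RGLS4326 kidneys (median 98.7). It had the least scatter among PBS mice, at 0.11 log2 CPM (SD, n = 11), and rose by 2.57 ± 0.09 on the log2 scale (SE, adjusted p = 3.68e-24). Tnfaip2, a TNF-induced gene also known as M-Sec, lay between 60.2 and 82.8 CPM in UNT (median 74.1), 116 and 170 CPM in PBS (median 131) and 97.1 and 139 CPM in RGLS4326 kidneys (median 121). Its groups were apart although its rise was moderate, at 0.88 ± 0.06 on the log2 scale (SE, adjusted p = 7.03e-15).

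The rise against UNT was there in RGLS4326-treated kidneys too. All 10 members were called higher in RGLS4326 than in UNT kidneys, where 40.8% of all genes were called higher and 36.9% lower. Of the 10, 8 rose by more than 1 on the log2 scale (16.7% of all genes) and 9 had groups that did not overlap (20.7% of all genes), again all but Nfkbia. The log2 fold changes ran from 0.30 for Nfkbia to 4.08 for Tnf, with a median of 2.30. The call of Nfkbia was lost in numbering set 2 alone (0.05, adjusted p = 0.722), in set 3 alone (0.23, adjusted p = 0.189) and with the no-gene share as a covariate (0.18, adjusted p = 0.147).

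Levels can be set beside each other only per length, as RPKM, the CPM divided by the exonic length in kilobases. In UNT kidneys Nfkbia led with 41.8 ± 6.91 RPKM (SD, n = 12), followed by Tnfaip2 with 14.7 ± 1.31 and Tnfrsf12a with 6.22 ± 1.29. Icam1 (4.20) and Nfkb2 (4.12) came next and did not differ beyond the larger of their SD, 0.639, nor did Birc3 (2.69) and Tnfrsf1b (2.35), with 0.593. Relb (1.59), Tnfaip3 (1.07) and Tnf (0.0760) closed the order. In PBS kidneys Nfkbia still led with 55.2 ± 6.78 RPKM (SD, n = 11), but Tnfrsf12a stood at 50.2 ± 14.2 and no longer differed from it beyond the spread. Tnfaip2 (27.0) and Icam1 (24.9) followed, then Nfkb2 (16.0) and Tnfrsf1b (14.5), Relb (10.3) and Birc3 (9.75), each pair within its larger SD. Tnfaip3 (5.06) and Tnf (1.72) came last. In RGLS4326 kidneys the order of means was that of PBS, except that Birc3 (10.4 RPKM) stood above Relb (8.46 RPKM), with SD of 1.90 and 1.15.

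Another 93 genes were listed for the pathway, also with earlier results of these data known. Of these, 90 were tested, 67 were called higher in PBS than in UNT kidneys, 16 lower and 7 neither, with a median log2 fold change of 1.04. By role, 7 of 8 ligands, 10 of 12 receptors, 3 of 3 subunits and 25 of 29 target genes were called higher, and 1 ligand, 2 receptors, 0 subunits and 2 targets lower. Of the adaptors, 9 of 17 were called higher and 4 lower, of the kinases 3 of 7 higher and 4 lower, and of the genes listed as inhibitors 10 of 14 higher and 3 lower. That list is broad and takes in Bcl3, Nfkbiz and Tnfaip8. These counts stand beside 43.1% of all genes called higher and 39.0% called lower. The steepest rises were those of the targets Lcn2, the tubular injury marker NGAL (log2 fold change 8.23 ± 0.26), and the chemokines Cxcl5 (7.94 ± 0.42) and Ccl20 (6.74 ± 0.36). Mean levels in UNT and PBS kidneys were 3.52 and 1061 CPM for Lcn2, 0.0219 and 6.07 CPM for Cxcl5, and 0.0174 and 2.63 CPM for Ccl20. The rises of Cxcl5 and Ccl20 thus start from a level near 0. The steepest falls were those of Tnfaip8 (-2.02 ± 0.14), of the IkappaB kinase Chuk (-1.57 ± 0.12) and of Sod2, the mitochondrial superoxide dismutase (-1.57 ± 0.08, all SE). The closest partners of the members, named for that and outside the rule on size, moved less steeply. Tnfrsf1a, the receptor of TNF on most cells, rose by 1.30 ± 0.06 on the log2 scale (adjusted p = 1.52e-19) and Tnfsf12, which encodes TWEAK, by 0.59 ± 0.08 (adjusted p = 3.14e-08). The canonical subunits Rela and Nfkb1 rose by 1.23 ± 0.08 and 1.25 ± 0.06, and Map3k14, the kinase NIK that triggers processing of the Nfkb2 product, rose by 1.52 ± 0.06.

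**Figure D2:**
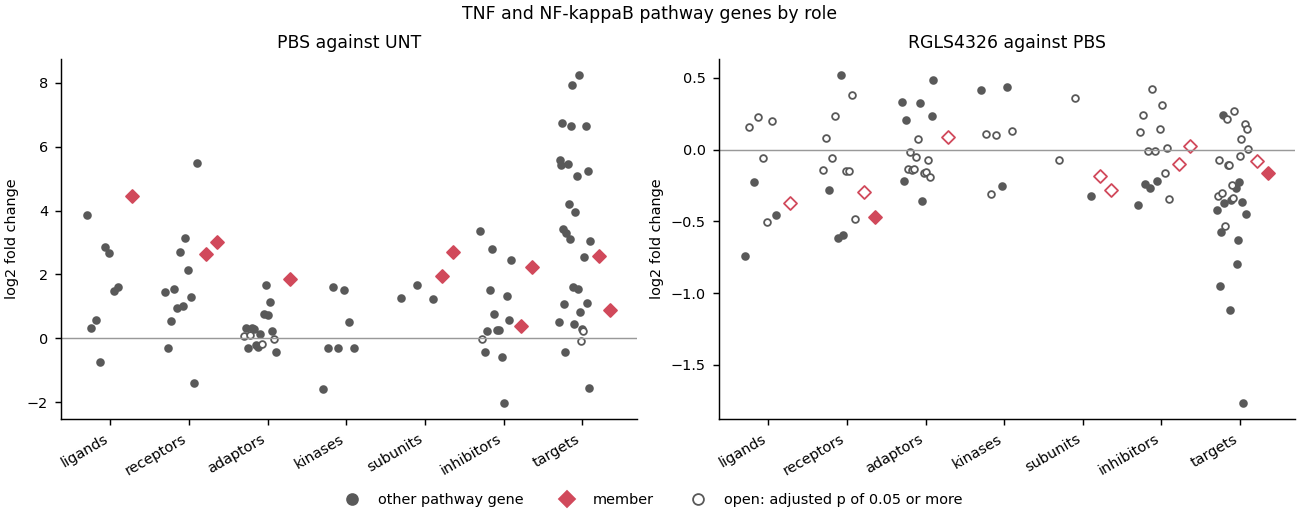
Log2 fold change (vertical) of 90 other pathway genes (grey circles) and of the 10 members (red diamonds) by role, for PBS against UNT and for RGLS4326 against PBS, with open symbols where the adjusted p was 0.05 or more. Targets reach 8.23 for PBS against UNT, and 13 of 29 targets were called lower for RGLS4326 against PBS.

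Markers of cell types moved in both directions. The summed level of 8 macrophage markers was 113 to 192 CPM in UNT, 971 to 2977 CPM in PBS and 910 to 1869 CPM in RGLS4326 kidneys, with 8 of 8 called higher in PBS than in UNT and 5 of 8 lower in RGLS4326 than in PBS. Neutrophil markers stood at 1.63 to 7.71, 8.57 to 44.8 and 11.4 to 22.8 CPM in the same order, with 5 of 5 tested called higher in PBS than in UNT and 1 lower with treatment. Of the T and NK cell markers, 5 of 6 tested rose in PBS and 5 fell with treatment. All 4 dendritic cell markers rose in PBS, and 0 were called either way with treatment. Of 4 B cell markers, 1 was called higher and 1 lower in PBS than in UNT, and 1 lower with treatment. The 5 proximal tubule markers fell in PBS, from 8205 to 11154 CPM in UNT to 662 to 2387 CPM in PBS and 1587 to 2725 CPM in RGLS4326 kidneys, with 4 of 5 called higher with treatment. All markers of the thick ascending limb (2), distal convoluted tubule (2) and podocytes (3) were called lower in PBS than in UNT. With treatment 2, 1 and 3 of them were called higher. Collecting duct markers, 496 to 828 CPM in UNT, stood at 909 to 2245 CPM in PBS, with 5 of 5 higher, and at 468 to 1913 CPM in RGLS4326 kidneys, with 4 of 5 lower. Fibroblast markers stood at 509.6 to 1182 CPM in UNT, 2493 to 5278 CPM in PBS and 3350.5 to 4908 CPM in RGLS4326 kidneys, with 6 of 6 higher in PBS than in UNT and 1 higher and none lower with treatment. Endothelial markers stood at 472 to 589, 333 to 528 and 464 to 578 CPM, with 4 of 6 lower and 2 higher in PBS than in UNT and 5 of 6 higher with treatment. Beside these counts, 43.1% of all genes were called higher and 39.0% lower in PBS than in UNT, and 15.3% higher and 18.5% lower with treatment. Treatment calls over all genes, 5280, were 145 with the no-gene share as a covariate and 2836 without the adrenal-marked libraries. Every listed marker with a row had a count in at least 1 library. The part of these cells in the members' differences was not tested.

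The second comparison asked how RGLS4326 treatment moved the members in cystic kidney. It shares its PBS mice with the comparison of PBS against UNT. Tnfrsf12a and Tnfaip2 were called lower with treatment, 2 of 10 members where 18.5% of all genes were called lower, and no member was called higher where 15.3% of all genes were. The log2 fold change was below 0 for 8 members and above 0 for Tnfaip3 and Birc3, with a median of -0.18 against 0.0022 over all genes. No member had PBS and RGLS4326 groups that did not overlap, as was so for nearly all genes (0.0447% lay wholly higher and 0.0192% wholly lower with treatment).

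**Figure D3:**
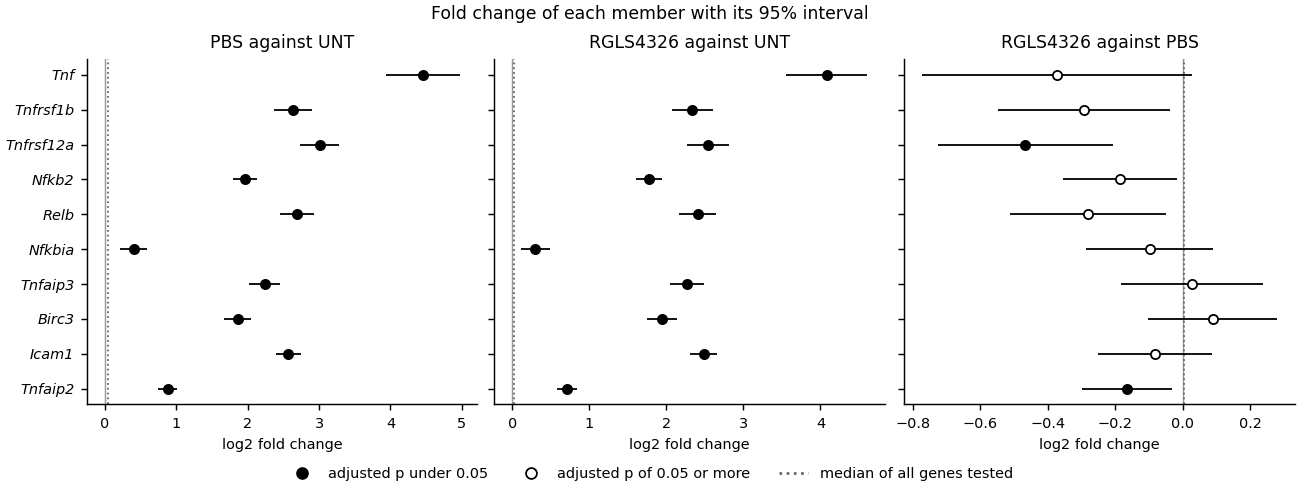
Log2 fold change (horizontal) of each member with its 95% interval for the 3 comparisons, filled where the adjusted p was under 0.05, with a dotted line at the median of all genes tested. Against UNT all 10 intervals lie above 0, and for RGLS4326 against PBS the estimates lie between -0.47 and 0.09.

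The receptor Tnfrsf12a fell furthest, by 0.47 ± 0.13 on the log2 scale (SE, 95% interval -0.73 to -0.21, adjusted p = 0.00852). Its mean went from 96.9 ± 27.5 to 70.1 ± 10.6 CPM (SD, n = 11 and 11), and 10 of 11 treated kidneys lay below the PBS median. Its level with treatment remained 5.82-fold above UNT. The call held when each of the 34 libraries was left out in turn (-0.51 to -0.37) and without the adrenal-marked libraries (-0.44, adjusted p = 0.0290), and it was lost with the no-gene share as a covariate (-0.31, adjusted p = 0.204). Tnfaip2 fell by 0.17 ± 0.07 (SE, 95% interval -0.30 to -0.03, adjusted p = 0.0479), with 9 of 11 treated kidneys below the PBS median. This call lay at the threshold and was kept in 10 of the 34 fits that left out 1 library, and without the adrenal-marked PBS replicates 2 and 11, the PBS kidneys highest in Tnfaip2, it stood at -0.09 (adjusted p = 0.248). With the no-gene share as a covariate it stood at -0.075 (adjusted p = 0.493).

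For Tnfrsf1b, Relb and Nfkb2 the adjusted p lay between 0.05 and 0.08. Tnfrsf1b differed by -0.29 ± 0.13 (SE, adjusted p = 0.0669), Relb by -0.28 ± 0.11 (adjusted p = 0.0534) and Nfkb2 by -0.19 ± 0.08 (adjusted p = 0.0751), with 95% intervals that lay below 0 for all 3. All 11 treated kidneys lay below the PBS median of Relb, and 9 of 11 below those of Tnfrsf1b and Nfkb2. Relb was called lower by DESeq2 (-0.28, adjusted p = 0.0414) and in the fit of PBS and RGLS4326 libraries alone (adjusted p = 0.0206), a fit in which Tnfaip2 lost its call (-0.16, adjusted p = 0.0715). Without the adrenal-marked libraries Relb stood at -0.24 (adjusted p = 0.146), Tnfrsf1b at -0.21 (adjusted p = 0.230) and Nfkb2 at -0.14 (adjusted p = 0.238).

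Tnf differed by -0.37 ± 0.20 (SE, 95% interval -0.77 to 0.03, adjusted p = 0.134), with 9 of 11 treated kidneys below the PBS median. Without the adrenal-marked libraries it stood at -0.23 (adjusted p = 0.404). The treated mice were closer to each other than the PBS mice, with an SD of 0.338 against 1.02 CPM. The remaining 4 members had intervals on both sides of 0. Icam1 stood at -0.08 (95% interval -0.25 to 0.09, adjusted p = 0.448) and Nfkbia at -0.10 (-0.29 to 0.09, adjusted p = 0.411). Tnfaip3 stood at 0.03 (-0.18 to 0.24, adjusted p = 0.856). Birc3, the member with the 7mer-A1 site for miR-17, stood at 0.09 (-0.10 to 0.28, adjusted p = 0.471), with 8 of 11 treated kidneys above the PBS median. These intervals leave room for a change of up to about 0.3 on the log2 scale.

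Among the 90 other pathway genes tested, 27 were called lower with treatment, 9 higher and 54 neither, with a median log2 fold change of -0.13, beside 18.5% of all genes called lower and 15.3% called higher. Of 29 targets, 13 were called lower, and so were 3 of 8 ligands, 3 of 12 receptors, 1 of 3 subunits and 4 of 14 inhibitors, while 1 target, 1 receptor and none of the ligands, subunits and inhibitors were called higher. Of the adaptors, 5 of 17 were called higher and 2 lower, and of the kinases 2 of 7 higher and 1 lower. The steepest falls were those of the acute phase gene Saa3 (-1.76 ± 0.46), Cxcl5 (-1.12 ± 0.25) and Ccl20 (-0.95 ± 0.22), and the steepest rises those of the receptor Tnfrsf14 (0.52 ± 0.15), the caspase inhibitor Xiap (0.49 ± 0.12) and the kinase Map3k8 (0.43 ± 0.15, all SE). Genes were named only above a mean of 1 CPM, which Saa3 passed at 1.05 CPM over all mice through its PBS level. Saa3 stood at 0.0210 CPM in UNT, 2.499 ± 2.526 CPM in PBS and 0.725 ± 0.959 CPM in RGLS4326 kidneys (SD). Its scatter among PBS mice was thus larger than its mean, and without the adrenal-marked libraries its fall was -1.25 (adjusted p = 0.0434). Among the members' partners, Tnfsf12 (-0.22, adjusted p = 0.0362), Map3k14 (-0.25, adjusted p = 0.00569) and Rela (-0.32, adjusted p = 0.00541) fell, whereas Tnfrsf1a stood at -0.15 (adjusted p = 0.0697) and Nfkb1 at -0.07 (adjusted p = 0.304). None of the 90 genes was called with the no-gene share as a covariate, where Cxcl5 stood at -1.10 (adjusted p = 0.0546) and Rela at -0.18 (adjusted p = 0.157). Without the adrenal-marked libraries 17 were called, and of the genes named here Tnfsf12 (-0.19, adjusted p = 0.103) and Map3k8 (0.41, adjusted p = 0.0641) lost their call.

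The treatment difference was then taken within each numbering set, as the difference of mean log2 CPM. It was below 0 in all 3 sets for 6 members (Tnf, Tnfrsf1b, Tnfrsf12a, Nfkb2, Relb and Tnfaip2). Tnfrsf12a differed by -0.61, -0.48 and -0.32 in sets 1, 2 and 3, and Relb by -0.30, -0.33 and -0.25. Tnf differed by -0.24, -0.05 and -0.58, and in the edgeR fit of set 2 alone it stood at 0.0092 (adjusted p = 0.985). The sign changed between sets for the other 4. Tnfaip3 differed by 0.19, -0.45 and 0.21, Nfkbia by 0.16, -0.39 and -0.14, Icam1 by 0.03, -0.37 and -0.02, and Birc3 by 0.15, -0.06 and 0.18. Set 2 held the lowest value of each of these 4. The no-gene share in set 2 was 13.9 to 14.6% in the 3 RGLS4326 libraries and 6.54 to 11.0% in the 4 PBS libraries. In set 3, RGLS4326 replicate 11 also had a high share, at 14.5%. A link between this share and the differences was not tested by set. In edgeR fits of set 2 alone, Nfkbia (-0.36, adjusted p = 0.0290) and Icam1 (-0.35, adjusted p = 0.0178) were called lower, where 1901 of 15944 genes were, and Tnfrsf12a was not (-0.51, adjusted p = 0.131), and in set 3 alone Tnfrsf12a stood at -0.38 (adjusted p = 0.353). With the no-gene share as a covariate over all libraries, no member was called for RGLS4326 against PBS, and 145 genes were called in all in place of 5280. In edgeR's test of whether the treatment difference varied between sets, no member passed. Nfkbia had an unadjusted p of 0.0250 and Tnfaip3 of 0.0298 (adjusted p = 0.865 for both), and 0 of 15233 genes were called (0.0%), with 796 at an unadjusted p under 0.05.

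**Figure D4:**
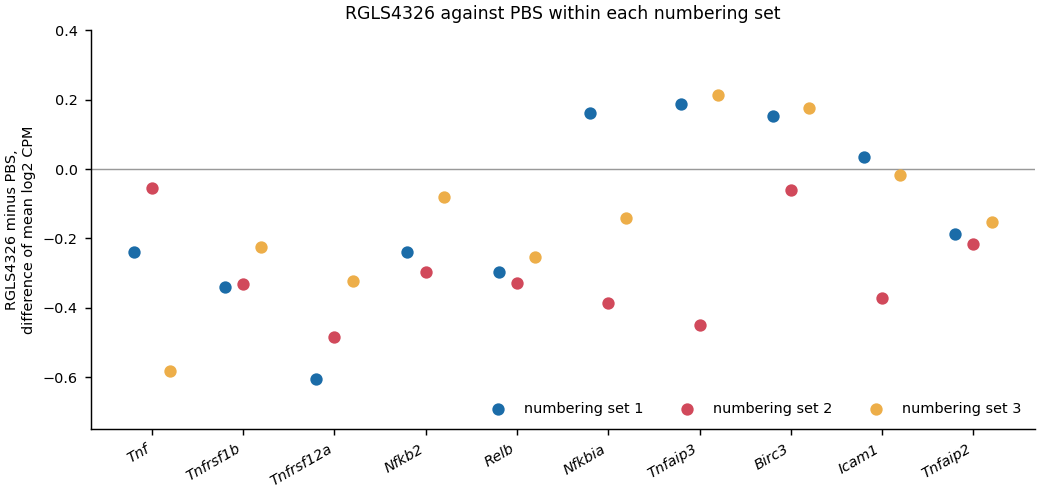
Difference of mean log2 CPM, RGLS4326 minus PBS (vertical), of each member within numbering sets 1, 2 and 3 (points by colour). Tnf (-0.05 in set 2), Tnfrsf1b, Tnfrsf12a, Nfkb2, Relb and Tnfaip2 lie below 0 in every set, and Tnfaip3 runs from -0.45 in set 2 to 0.21 in set 3.

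A few mice carried much of the scatter within groups. PBS replicate 8 was the lowest of its group for 7 of 10 members and below the group median for all 10. RGLS4326 replicate 6 was the lowest for 8 members and below the median for all 10, whereas RGLS4326 replicate 10 was above the median for all 10. In UNT kidneys replicate 10 was the lowest for 5 members and the highest for 2. RGLS4326 replicate 11 was below the median for 9 members. The no-gene share was 7.81% in PBS replicate 8, 13.9% in RGLS4326 replicate 6, 7.21% in RGLS4326 replicate 10 and 14.5% in RGLS4326 replicate 11. Without PBS replicate 8 the treatment comparison called 5 members lower, adding Tnfrsf1b, Nfkb2 and Relb, where 19.2% of all genes were called lower, and without RGLS4326 replicate 10 it called 4, adding Tnfrsf1b and Relb, where 20.6% were. Without RGLS4326 replicate 6 it called Tnfrsf12a alone, where 14.6% were. All 10 members stayed called against UNT in each of these fits.

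**Figure D5:**
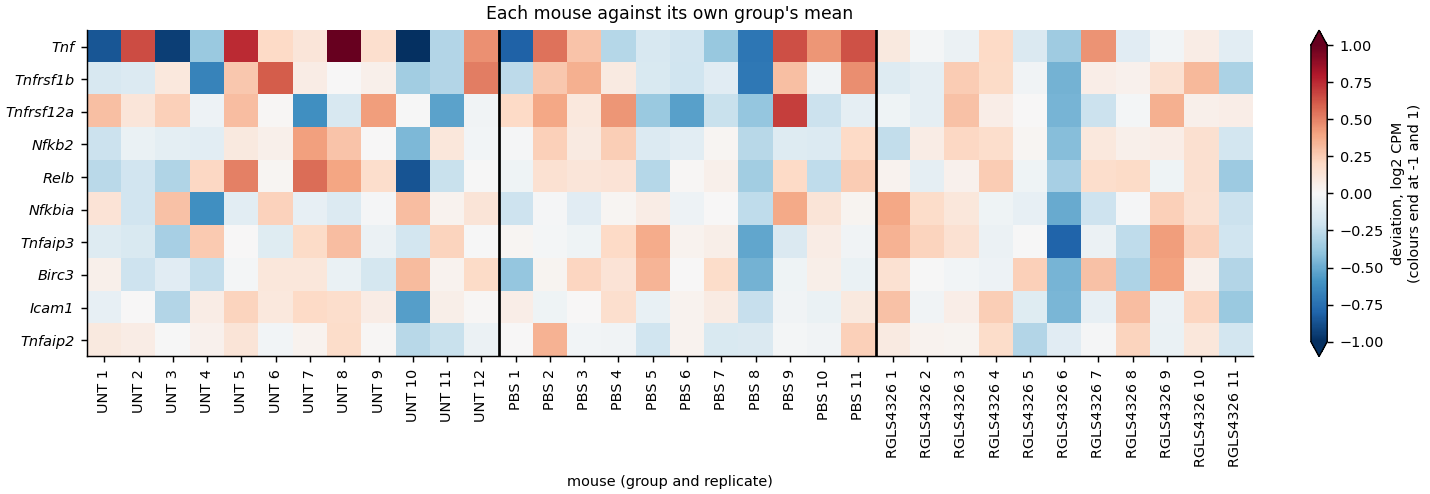
Deviation of each mouse (horizontal) from its group's mean log2 CPM for each member (vertical), blue below and red above, with colours ending at -1 and 1. The columns of PBS replicate 8 and RGLS4326 replicate 6 are blue for nearly every member, and Tnf varies most among UNT mice.

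Between mice of the same group, the members varied together to unlike degrees. After each group's mean was taken off, the 45 pairs of members had a median Pearson r of 0.37 and a median Spearman rho of 0.28 over 34 mice, which share their library and its depth across genes. Relb and Icam1 were the closest pair (r = 0.80, rho = 0.76), followed by Nfkb2 and Relb (r = 0.77, rho = 0.68), and r was 0.79 and 0.75 for these pairs without PBS replicate 8 and RGLS4326 replicate 6, the mice farthest from the median. Nfkbia and Relb had an r of -0.15, and Birc3 and Tnfaip2 of -0.22. Without these mice the median r over the 45 pairs was 0.22, with 17 pairs below 0 in place of 3. They were picked for their distance in the members themselves, so a lower r without them follows in part from the choice. Tnfrsf1b followed the mean of the members most closely (r = 0.81, itself included in that mean) and Tnfrsf12a least (r = 0.41).

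The 10 other genes whose variation between mice of a group was most like the mean of the members were Fxyd5, Arl4c, Slc15a3, Oas3, Cnp, Rhoc, Oasl1, Trem1, Efhd2 and Il3ra. Their Pearson r over the 34 mice ran from 0.82 for Il3ra to 0.86 for Fxyd5, and from 0.64 to 0.79 without PBS replicate 8 and RGLS4326 replicate 6. Fxyd5, an ion transport regulator, stood at 10.8 CPM in UNT, 63.9 in PBS and 44.4 in RGLS4326 kidneys on average, and fell by 0.53 on the log2 scale with treatment (adjusted p = 0.00434). Trem1, a receptor of neutrophils and monocytes, stood at 0.0282, 2.32 and 1.44 CPM. Oas3 and Oasl1, genes of the interferon response, stood at 0.541 and 3.06 CPM in UNT and at 7.45 and 12.5 CPM in PBS kidneys. All 10 were called higher in PBS than in UNT kidneys, beside 43.1% of all genes, and 7 were called lower with treatment, beside 18.5% of all genes.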

How the data were processed

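Kidney polyA RNA was sequenced as stranded paired-end libraries. The authors trimmed reads with Trim Galore, aligned them to GRCm38 (mm10) with STAR and deposited raw read counts per gene, counting uniquely mapped reads with HTSeq (version 0.6.1 per the labels). The strand setting and the gene annotation are not given in the sources used here. Each table held 23509 gene rows, and the HTSeq rows for reads in no gene were kept out of library sizes.

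Groups came from the labels. Low-count genes were removed with filterByExpr, libraries were scaled by TMM, and all 34 libraries of the 3 groups entered 1 edgeR quasi-likelihood fit (edgeR 4.0.16, R 4.3.3) with no covariate. P-values were two-sided and adjusted by Benjamini-Hochberg over the 15644 genes tested, with a threshold of 0.05. CPM used TMM-scaled library sizes, log2 CPM a prior count of 2, and RPKM the exonic length in the GENCODE annotation of GRCm38. Intervals are 95%. The fits were tested on simulated data. Members were chosen by name, and other pathway genes were named as the 3 called genes with the largest fold change in each direction among those with a mean CPM above 1. The 10 most alike genes were those with the highest r to the members' mean. The members and lists were chosen with earlier results of these data known. Labels do not say that mice of a group came from separate litters. Alternatives comprised DESeq2 1.42.0, RLE scaling, other filters, numbering sets, a replicate block, the share of reads in no gene, and leaving out libraries. Total counts of 17603122 to 54981992 per library limit precision mainly for Tnf, with 1 to 12 reads in each UNT library.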

Additional observations from a re-analysis of the deposited data

How the results depend on the processing

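Against UNT, every alternative called 9 or 10 members, Nfkbia being the one lost. For RGLS4326 against PBS the count of members called, 2, was 3 by DESeq2, 1 without the low-count filter, in numbering set 1 alone, with a replicate block and without the adrenal-marked libraries (chosen after the data were seen), and 0 in numbering set 3 alone and with the no-gene share as a covariate, and it ran from 1 to 5 when 1 library was left out, where 13.2 to 21.2% of all genes were called lower. All genes called lower, 2892 of 15644, were 3132 of 15644 by DESeq2, 2551 of 20069 without the filter and 2828 of 15635 with the block. In the fit of PBS and RGLS4326 libraries alone the count of members was also 2, with Relb called in place of Tnfaip2, where 2528 of 15233 genes were called lower. In set 3 alone and with the covariate, 2826 and 3359 of all genes had an unadjusted p under 0.05. The other pathway genes called, 36, became 2, 23 and 0 in numbering sets 1, 2 and 3 alone, 0 with that covariate and 17 without the adrenal-marked libraries, while the calls over all genes, 5280, became 54, 4065, 0, 145 and 2836 in these fits. Numbering set 2 alone called 2 members lower, Nfkbia and Icam1, other than those called over all mice, where 1901 of 15944 genes were called lower. Each set holds 7 or 8 mice of this contrast, and the cause of the unlike calls was not tested. The sign of small treatment differences turned for Tnf (0.0092), Tnfaip3 (-0.40) and Birc3 (-0.012) in set 2 alone, for Nfkbia (0.18) and Icam1 (0.048) in set 1 alone, and for Icam1 in set 3 alone (0.0042) and with the covariate (0.036). Tnfaip3 turned to -0.0091, -0.018 and -0.017 without RGLS4326 replicate 1, RGLS4326 replicate 9 and PBS replicate 8, within a range of -0.018 to 0.089 over all libraries left out in turn. Same-numbered mice were not paired, with correlations of their deviations down to -0.33 and above 0.1 in at most 5 of 11 pairs, so the replicate block is only a hint, and it changed no member's call other than that of Tnfaip2 (-0.17, adjusted p = 0.0623). RLE scaling moved no call of a member. Depth limits Tnf in UNT kidneys.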
